A study of Mus musculus with 18 samples.

Results

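Cd226, Tigit, Cd96 and Crtam encode receptors of natural killer (NK) and T cells that bind proteins of the nectin and nectin-like family. All probe sets of the array whose single gene symbol was one of these names were taken, which gave 1 probe set for each gene: 4 of 35399 probe sets in all, and 4 of the 21789 with a single symbol. They were measured on 18 Mouse Gene 1.0 ST arrays of NK cells from the spleens of ICR mice, an outbred strain, 6 weeks old and labelled as male or female. The mice were Runx3 +/+ (WT) or Runx3 -/- (KO), Runx3 being a transcription factor of the Runt family. All of them, WT included, had received injections of IL15/Ra complexes, the cytokine interleukin-15 held by the alpha chain of its receptor, so no group shows cells without that cytokine. From NKp46+ cells the sort took 3 subsets, immature CD27+CD11b- cells (CD27 below), mature CD27+CD11b+ cells (double positive, DP) and mature CD27-CD11b+ cells (CD11b), giving 6 groups of 3 arrays. The labels do not name the Runx3 allele, and they do not say if animals were pooled or if a shared replicate number means a shared animal. P-values therefore measure the spread between these samples, which may be technical.

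NK cells read the nectin family through receptors of opposite sign. CD226 (DNAM-1) is an activating receptor and adhesion molecule, whereas TIGIT carries inhibitory motifs in its tail. Both bind the poliovirus receptor CD155 (gene Pvr) and nectin-2 (gene Nectin2), and TIGIT can outcompete CD226 for CD155. CD96 binds CD155 too and is mostly described as inhibitory in mouse NK cells. CRTAM binds the nectin-like protein Necl-2 (gene Cadm1) and is known as a molecule that activated lymphocytes induce.

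Without Runx3 the receptors moved in opposite directions. Tigit mRNA was higher in KO cells of all 3 subsets, by 2.46- to 2.98-fold. Cd226 mRNA was 2.50-fold higher in DP cells and 2.68-fold higher in CD11b cells, and in CD27 cells its KO and WT arrays overlapped. Cd96 mRNA was 2.17-fold lower in CD11b cells, and Crtam mRNA 3.87-fold lower in CD27 cells. The 18 values of each gene are in the plot of receptor mRNA by array, and the folds with their intervals in the plot of KO against WT. All values below are log2 RMA values or differences of them. An adjusted p is that of limma's moderated test after Benjamini-Hochberg adjustment over all probe sets, and under 0.05 is called passing. These are sorted but bulk samples, in which fewer cells of a type and less RNA per cell cannot be told apart.

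**Figure D1:**
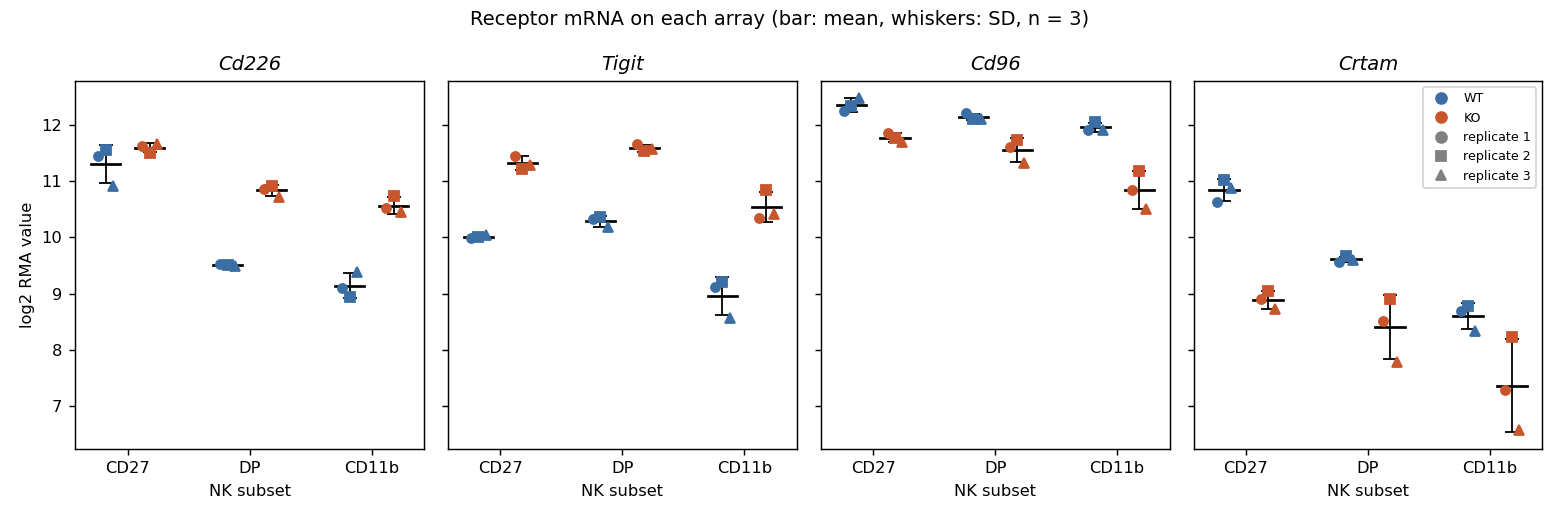
Log2 RMA value (vertical axis) of each receptor gene on every array, by NK subset (horizontal axis), WT in blue and KO in orange; marker shapes give the replicate number, bars the mean and whiskers the SD of 3 arrays. Tigit is higher in every KO group than in the WT group of its subset, Cd96 and Crtam are lower, and Cd226 overlaps between genotypes in CD27 cells.

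No difference of Cd226, the activating receptor, was called between the genotypes in the immature cells. Its log2 values in CD27 cells were 11.44, 11.55 and 10.91 on the WT arrays and 11.62, 11.51 and 11.65 on the KO arrays. The arrays overlapped, with WT replicate 3 standing below the other 5. KO exceeded WT by 0.29 (1.22-fold, 95% interval 0.988 to 1.52, adjusted p = 0.464), a difference that did not pass. WT replicate 3 of CD27 cells was also the lowest of the 3 WT arrays for Itgam (9.25 against 10.56 and 10.62) and for Cd3e (8.14 against 10.49 and 11.09). The KO arrays of CD27 cells read 9.35, 9.40 and 9.74 for Itgam and 6.39, 6.69 and 7.65 for Cd3e. In these 2 genes they were closer to WT replicate 3 than to the other WT arrays. Without WT replicate 3 the Cd226 difference was 0.10 (adjusted p = 0.864).

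In DP cells the Cd226 values were 9.52, 9.51 and 9.50 in WT and 10.86, 10.92 and 10.72 in KO. The WT arrays lay within 0.02 of each other and all 3 KO arrays were above them. The difference was 1.32 (2.50-fold, 2.02 to 3.10, adjusted p = 0.000811), the 10th in size of the moderated statistic among all probe sets. In CD11b cells the values were 9.10, 8.94 and 9.39 in WT and 10.52, 10.73 and 10.44 in KO, again without overlap. The difference was 1.42 (2.68-fold, 2.16 to 3.32, adjusted p = 0.000231).

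Tigit, the inhibitory receptor that shares its ligands with CD226, was higher in KO cells at each stage. Its values in CD27 cells were 9.98, 10.001 and 10.04 in WT and 11.45, 11.22 and 11.29 in KO. In DP cells they were 10.32, 10.37 and 10.18 in WT and 11.66, 11.54 and 11.56 in KO. In CD11b cells they were 9.11, 9.20 and 8.57 in WT and 10.35, 10.84 and 10.42 in KO. In each subset the lowest KO array was above the highest WT array. The differences were 1.31 in CD27 cells (2.48-fold, 2.00 to 3.09, adjusted p = 0.000687), 1.30 in DP cells (2.46-fold, 1.97 to 3.06, adjusted p = 0.00101) and 1.57 in CD11b cells (2.98-fold, 2.39 to 3.71, adjusted p = 0.000122). Tigit was the 1 member that passed in all 3 subsets, where 27 probe sets were higher in each (0.0763% of those tested). When the CD11b groups were fitted alone, with 6 arrays and fewer degrees of freedom, Tigit did not pass (adjusted p = 0.0822). By the RefSeq gene table the span of Tigit overlaps those of Zbtb20 and Mir568, and that of Cd96 overlaps Gm50487.

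Cd96, also a CD155 receptor, was lower in KO cells. Its values in CD27 cells were 12.24, 12.33 and 12.48 in WT and 11.86, 11.76 and 11.70 in KO. In DP cells they were 12.21, 12.10 and 12.11 in WT and 11.60, 11.73 and 11.33 in KO. Every KO array was below every WT array of its subset, but neither difference passed: -0.58 in CD27 cells (1.49-fold lower, 1.21 to 1.84, adjusted p = 0.0725) and -0.59 in DP cells (1.5-fold lower, 1.22 to 1.84, adjusted p = 0.116). The CD27 difference of Cd96 passed with the arrays of KO replicate 3 left out (-0.54, adjusted p = 0.0309). In CD11b cells the values were 11.91, 12.05 and 11.91 in WT and 10.85, 11.18 and 10.50 in KO. Here Cd96 fell by 1.11 on the log2 scale (2.17-fold lower, 1.76 to 2.66, adjusted p = 0.000951). Fitted with the CD11b groups alone it did not pass (adjusted p = 0.111).

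Crtam, the receptor of Necl-2, was lower in KO cells and passed in the immature cells, where its WT level was highest. In CD27 cells its values were 10.63, 11.02 and 10.87 in WT and 8.90, 9.05 and 8.72 in KO. The groups lay more than 1 log2 unit apart, and Crtam fell by 1.95 (3.87-fold lower, 2.38 to 6.28, adjusted p = 0.0105). This was the 11th lowest difference of all probe sets in CD27 cells. Without CD27 WT replicate 2 the difference was -1.86 and did not pass (adjusted p = 0.0587).

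In DP cells the Crtam values were 9.56, 9.66 and 9.60 in WT and 8.51, 8.91 and 7.79 in KO. In CD11b cells they were 8.69, 8.77 and 8.34 in WT and 7.28, 8.23 and 6.58 in KO. No KO array reached a WT array in either subset, but the KO arrays were spread widely, with SDs of 0.56 and 0.82 against 0.05 and 0.23 in WT. The differences of -1.20 in DP cells (2.30-fold lower, 1.42 to 3.74, adjusted p = 0.181) and -1.24 in CD11b cells (2.36-fold lower, 1.45 to 3.83, adjusted p = 0.0899) did not pass. KO replicate 3 was the lowest and KO replicate 2 the highest in both. Without CD11b KO replicate 2 the CD11b difference was -1.67 and passed (adjusted p = 0.00718), and without KO replicate 3 in all subsets it was -0.85 (adjusted p = 0.132).

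Read over the members, 2 of 4 passed in CD27 cells (Tigit higher, Crtam lower), where 0.907% of all probe sets did. In DP cells 2 of 4 passed, Cd226 and Tigit, both higher, against 0.395% of all probe sets. In CD11b cells 3 of 4 passed (Cd226 and Tigit higher, Cd96 lower), against 1.29%. KO and WT arrays did not overlap for 3 of 4 members in CD27 cells, 4 of 4 in DP cells and 4 of 4 in CD11b cells, whereas 16.4%, 14.6% and 18.7% of all probe sets had no overlap in these subsets. The median difference over all probe sets was -0.01, -0.02 and -0.01. The plot of the receptors among all probe sets sets each difference in that distribution.

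**Figure D2:**
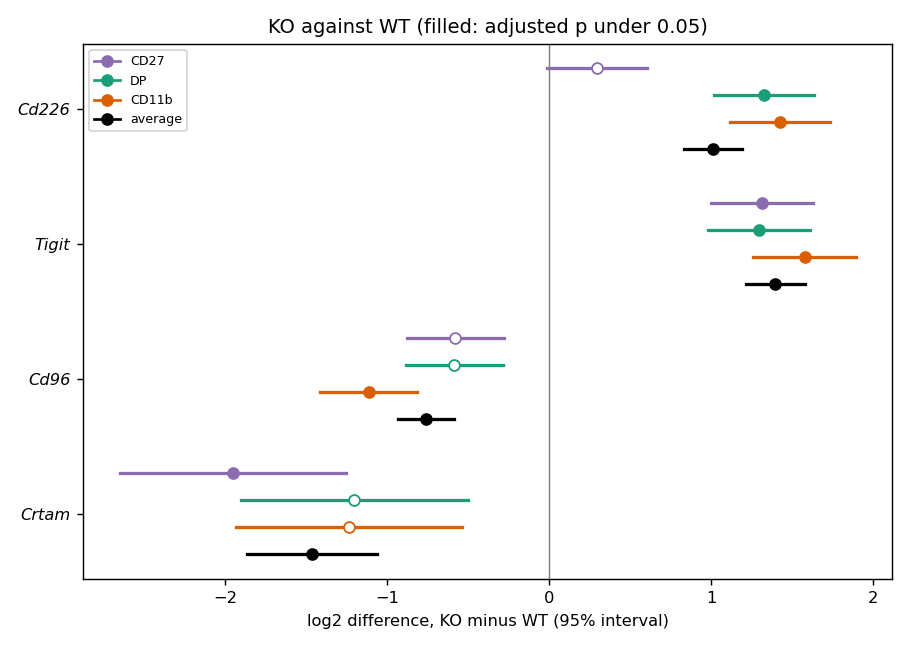
Log2 difference between KO and WT (horizontal axis, with 95% interval) of the 4 receptor genes in each NK subset and averaged over the subsets; filled points have an adjusted p under 0.05. Cd226 and Tigit lie to the right of 0 and Cd96 and Crtam to the left, and the interval of Cd226 in CD27 cells spans 0.

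**Figure D3:**
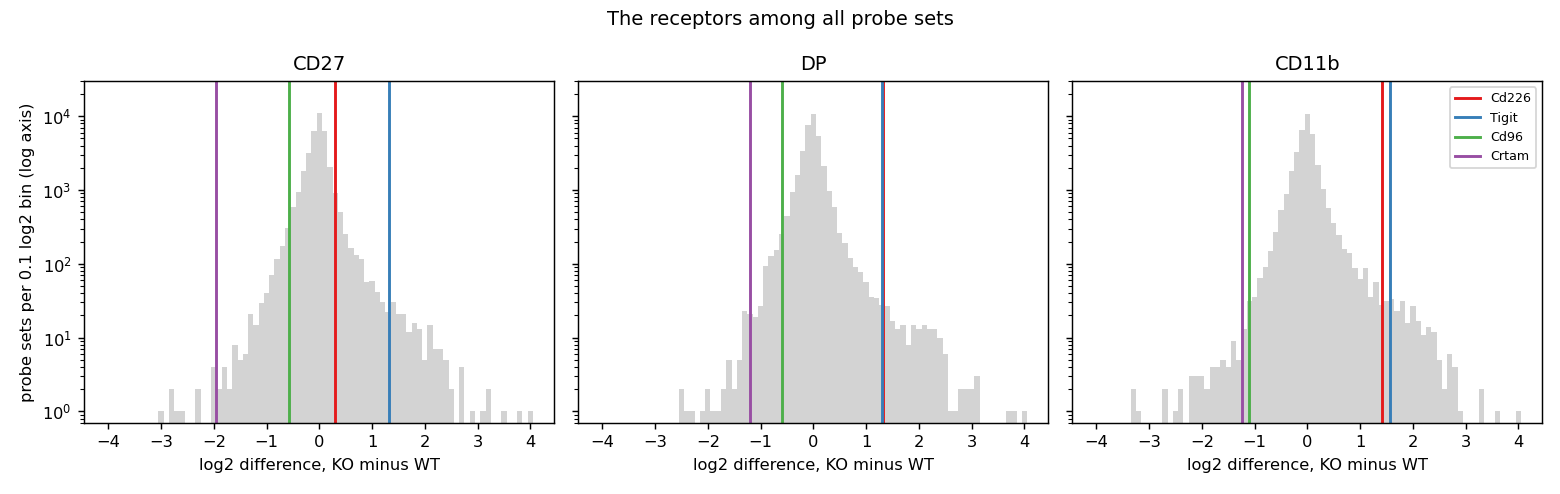
Number of probe sets per bin of 0.1 log2 (vertical, log axis) by their difference between KO and WT (horizontal axis) in each subset, with the 4 receptors as coloured lines; probe sets beyond the axis are counted in the outermost bins. Crtam stands in the far left tail in CD27 cells (-1.95), and Tigit in the right tail in all 3 subsets (1.31, 1.30 and 1.57).

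Averaged over the subsets, all 4 members passed, where 8.08% of probe sets did. Cd226 was 2.02-fold higher (1.78 to 2.28, adjusted p = 6.62e-06) and Tigit 2.63-fold higher (2.32 to 2.98, adjusted p = 6.46e-07). Cd96 was 1.69-fold lower (1.5 to 1.91, adjusted p = 5.56e-05) and Crtam 2.76-fold lower (2.09 to 3.65, adjusted p = 0.000311). These values treat the 3 arrays of a replicate number as independent. With the 3 arrays averaged first, so that 3 values stood against 3, Cd226 and Tigit passed (adjusted p = 0.0139 for each), and Cd96 (0.0832) and Crtam (0.129) did not.

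Whether the effect of genotype itself differed between subsets was tested by contrasts of differences, and no member passed. For Cd226 the effect in DP cells exceeded that in CD27 cells by 1.03 (95% interval 0.60 to 1.47, adjusted p = 0.974), and the effect in CD11b cells exceeded it by 1.13 (0.69 to 1.57, adjusted p = 0.0969). Among all probe sets 0.00282% and 0.0367% passed these contrasts. The calls for Cd226 changed with the fit. Without CD27 WT replicate 3, the array with low Cd226 described above, the differences were 1.23 (adjusted p = 0.0225) and 1.32 (adjusted p = 0.00546), and both passed. That fit keeps the WT arrays of CD27 cells with the higher Itgam and Cd3e. With all 18 arrays kept, the CD11b minus CD27 difference passed with array weights (1.23, adjusted p = 0.0117) and with the replicate number as a random block (1.13, adjusted p = 0.0467). The effects in CD11b and DP cells differed by 0.10 for Cd226 (adjusted p = 0.999), a contrast that 0.00565% of probe sets passed. For Tigit the effects differed by -0.02 between DP and CD27 cells and by 0.26 between CD11b and CD27 cells. For Cd96 the effect in CD11b cells was 0.54 log2 units further below 0 than in CD27 cells (difference -0.54, -0.96 to -0.11, adjusted p = 0.714). For Crtam the effects in DP and CD11b cells were less negative than in CD27 cells by 0.75 and 0.71, with intervals that included 0 (-0.24 to 1.74 and -0.27 to 1.70). A moderated F test of genotype by subset passed for 0.0113% of probe sets and for no member (adjusted p = 0.169 for Cd226 and 1 for the other 3), and Cd226 passed it without CD27 WT replicate 3 (0.0101) and with array weights (0.0167).

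In WT mice Cd226 was lower in DP than in CD27 cells and Tigit lower in CD11b than in DP cells, and the other members passed at neither step. Whether the sizes of the 2 steps differ was not tested. From CD27 to DP cells, where 0.557% of probe sets passed, Cd226 was the 1 member that passed. It fell by 1.79 on the log2 scale (3.46-fold lower, 2.79 to 4.28, adjusted p = 0.000119), the largest moderated statistic of all probe sets in that comparison. With the WT CD27 and DP groups fitted alone it did not pass (adjusted p = 0.0888). Crtam was 1.23 lower in DP than in CD27 cells and did not pass (adjusted p = 0.163). It passed at the same size when KO replicate 3 was left out in all subsets (-1.23, adjusted p = 0.0214). Tigit (0.28, adjusted p = 0.674) and Cd96 (-0.21, adjusted p = 0.796) did not pass at this step.

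From DP to CD11b cells in WT, where 0.525% of probe sets passed, Tigit was the 1 member that passed. It fell by 1.33 (2.51-fold lower, 2.02 to 3.12, adjusted p = 0.000759), though not with the 2 groups fitted alone (adjusted p = 0.0584). Crtam was 1.01 lower (adjusted p = 0.301), Cd226 0.37 lower (adjusted p = 0.453) and Cd96 0.18 lower (adjusted p = 0.841). Over the whole path, CD11b against CD27 cells, 3 of 4 members passed in WT against 5% of probe sets. Crtam was 4.72-fold lower (adjusted p = 0.000895), Cd226 4.46-fold lower (adjusted p = 1.18e-06) and Tigit 2.06-fold lower (adjusted p = 0.000695). Cd96 differed by -0.39 (1.31-fold lower, adjusted p = 0.143) and did not pass.

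In KO cells the members were compared along the same path. From CD27 to DP cells no member passed, and 0.0198% of probe sets did. Cd226 differed by -0.76 there (1.69-fold lower, 1.37 to 2.09, adjusted p = 0.145). From DP to CD11b cells, where 0.514% of probe sets passed, Tigit fell by 1.05 (2.07-fold lower, adjusted p = 0.00493) and Cd96 by 0.71 (1.64-fold lower, adjusted p = 0.0372). With the KO DP and CD11b groups fitted alone neither passed (adjusted p = 0.181 for Tigit and 0.539 for Cd96). The Cd96 call ended without DP KO replicate 1 (-0.69, adjusted p = 0.189) or 2 (-0.62, 0.177) and without CD11b KO replicate 1 (-0.72, 0.152) or 3 (-0.54, 0.0986). The Tigit call ended without KO replicate 3 in all subsets (-1.0, adjusted p = 0.069). Crtam differed by -1.04 (adjusted p = 0.291). It passed without CD11b KO replicate 2 (-1.47, adjusted p = 0.0219). It also passed with the replicate number within each genotype as a fixed block (adjusted p = 0.0254). Same-numbered KO arrays met the rule for pairing given below, which does not show that they share an animal.

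From CD27 to CD11b cells in KO all 4 members passed, where 2.07% of probe sets did. Crtam was 2.88-fold lower (adjusted p = 0.0251), Cd226 2.04-fold lower (adjusted p = 0.0015), Cd96 1.90-fold lower (adjusted p = 0.0024) and Tigit 1.72-fold lower (adjusted p = 0.0114). With the 2 groups fitted alone Tigit (adjusted p = 0.144), Cd96 (0.139) and Crtam (0.282) did not pass. The Tigit call ended without CD27 KO replicate 1 (-0.72, adjusted p = 0.0611), without CD11b KO replicate 1 (-0.69, 0.066) and without KO replicate 3 in all subsets (-0.74, 0.0958). The Crtam call ended without CD27 KO replicate 1 (-1.52, adjusted p = 0.0845), 2 (-1.45, 0.0775) or 3 (-1.61, 0.0507), and without CD11b KO replicate 1 (-1.49, 0.0978) or 3 (-1.14, 0.0709). The comparisons in WT and in KO for 1 pair of subsets use separate arrays, and whether they differ is the test of the difference of effects given above.

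**Figure D4:**
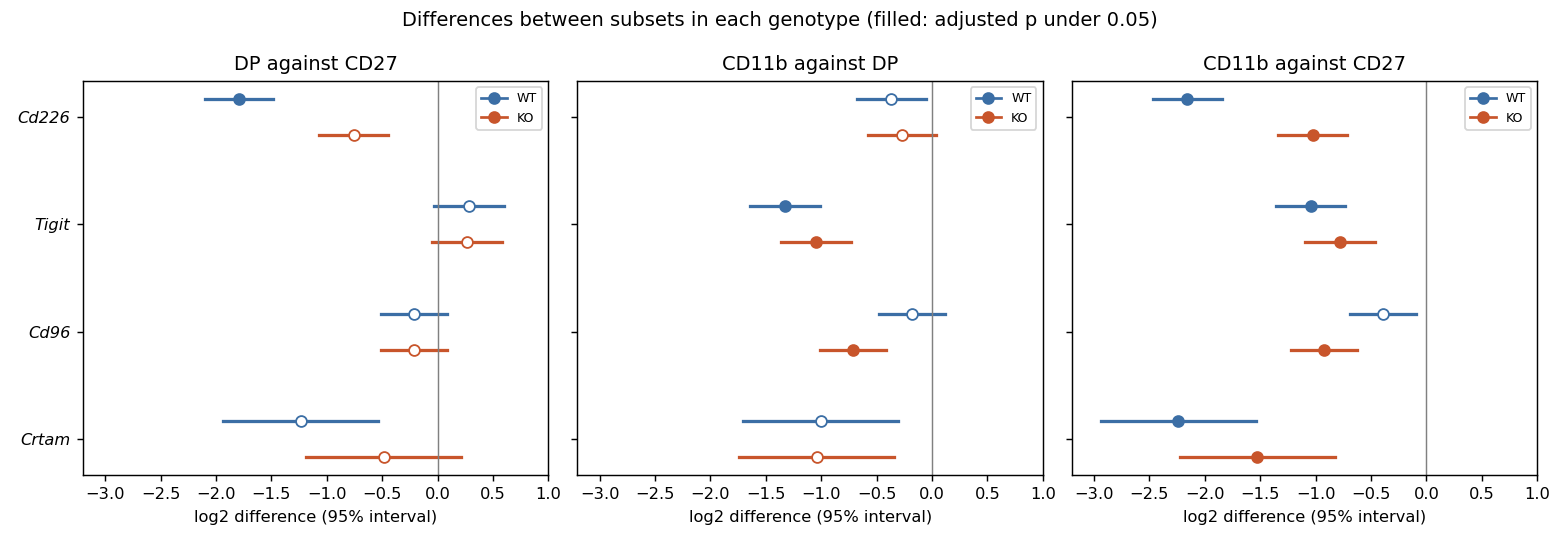
Log2 difference between NK subsets (horizontal axis, with 95% interval) of the 4 receptor genes, WT in blue and KO in orange; filled points have an adjusted p under 0.05. From CD27 to DP cells the largest step is that of Cd226 in WT (-1.79, against -0.76 in KO), and from DP to CD11b cells Tigit passed in both genotypes (-1.33 and -1.05).

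The order of the 6 group means shows how genotype and stage combine for each gene. For Cd226 the order from the top was CD27 KO (11.59 ± 0.08, SD, n = 3), CD27 WT (11.30 ± 0.34), DP KO (10.83 ± 0.10), CD11b KO (10.56 ± 0.15), DP WT (9.51 ± 0.01) and CD11b WT (9.14 ± 0.23). Neighbouring groups overlapped from CD27 KO down to CD11b KO. The overlap of CD27 WT with DP KO rested on WT replicate 3 (10.912, against 10.917 on the highest DP KO array). Every KO array of DP or CD11b cells was below all KO arrays of CD27 cells. Each was also above all WT arrays of the DP and CD11b gates. By their means, KO DP and CD11b cells stood closer to the immature cells of either genotype than to WT cells of their own gate. For Tigit the order was DP KO (11.59 ± 0.06), CD27 KO (11.32 ± 0.12), CD11b KO (10.54 ± 0.27), DP WT (10.29 ± 0.10), CD27 WT (10.01 ± 0.03) and CD11b WT (8.96 ± 0.34). The single overlap between neighbours was that of CD11b KO with DP WT.

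For Cd96 all 3 WT groups, CD27 (12.35 ± 0.12), DP (12.14 ± 0.06) and CD11b (11.96 ± 0.08), stood above all 3 KO groups, CD27 (11.77 ± 0.08), DP (11.55 ± 0.21) and CD11b (10.84 ± 0.34). The single overlap between neighbours was that of CD27 KO with DP KO. For Crtam the order was CD27 WT (10.84 ± 0.20), DP WT (9.61 ± 0.05), CD27 KO (8.89 ± 0.16), CD11b WT (8.60 ± 0.23), DP KO (8.40 ± 0.56) and CD11b KO (7.37 ± 0.82). From CD27 KO downwards each neighbouring pair overlapped, so immature KO cells were not separated from WT CD11b cells in Crtam.

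Tigit and Cd96 both lie on chromosome 16 and moved in opposite directions without Runx3, and for both a promoter sequence was at hand. The 250 bases before the gene's start are shown from RefSeq (build GRCm38.p6), 5′ to 3′ on the gene's strand, which is the minus strand for both. They cover chr16:43664185-43664434 for Tigit and chr16:46120249-46120498 for Cd96. The capitals mark the Runx core TGTGGT where it reads on the opposite strand, as ACCACA.
Tigit: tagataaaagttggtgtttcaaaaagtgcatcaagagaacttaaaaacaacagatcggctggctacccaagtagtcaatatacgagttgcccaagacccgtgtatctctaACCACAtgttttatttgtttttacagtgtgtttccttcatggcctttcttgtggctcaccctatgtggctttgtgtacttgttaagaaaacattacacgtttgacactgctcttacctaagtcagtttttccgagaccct
Cd96: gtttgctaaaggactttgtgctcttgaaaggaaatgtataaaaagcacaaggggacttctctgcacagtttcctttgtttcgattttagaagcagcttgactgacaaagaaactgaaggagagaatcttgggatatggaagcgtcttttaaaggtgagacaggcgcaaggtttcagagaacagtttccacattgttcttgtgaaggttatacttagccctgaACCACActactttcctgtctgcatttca
Each window held the core 1 time, at 140 bases before the start in Tigit and 28 bases before it in Cd96. Cd96 had 1 more copy, reading TGTGGT on the gene's own strand, 40 bases after the start. Searched on both strands, the core was present in 14% of the 32851 upstream windows of the table and in 16.8% of windows that reach 50 bases past the start. The T-box sequence AGGTGTGA, present in 1.12% of upstream windows, was in neither. These are matches of letters, and no binding was measured.

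Of the ligands, the genes of the nectin and nectin-like family, 8 of 9 had a probe set, and none passed between KO and WT in any subset. Their median difference was -0.01 in CD27 cells, -0.04 in DP cells and -0.01 in CD11b cells, near that of all probe sets. Apart from Pvr, the measured genes of the list were low. Their group means ran from 4.70 (Nectin1 in WT DP cells) to 5.94 (Cadm1 in KO CD11b cells), below the median of all values (6.32). At that level a difference near 0 does not show that expression was unchanged. Pvr, which encodes CD155, the ligand shared by CD226, TIGIT and CD96, had the smallest p of the list. Its mean was 9.44 ± 0.16 (SD, n = 3) in WT and 8.54 ± 0.32 in KO CD11b cells, without overlap of the arrays, a difference of -0.89 (1.86-fold, adjusted p = 0.0691). In DP cells the means were 9.06 ± 0.12 and 8.55 ± 0.34 (adjusted p = 0.485), and in CD27 cells 8.41 ± 0.31 and 8.37 ± 0.38 (adjusted p = 0.985). Averaged over the subsets, 1 of the 8 passed, a share near the 8.08% of all probe sets: Pvr was 1.39-fold lower in KO (adjusted p = 0.0326), and did not pass with the arrays of a sample averaged first (0.357). In WT cells Pvr was 2.04-fold higher in CD11b than in CD27 cells (adjusted p = 0.0134), opposite to the fall of Cd226 and Tigit over the same path. Nectin3, which encodes another nectin, differed by -0.13 in DP cells (adjusted p = 0.59).

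Of 12 genes of the signalling partners of CD226, among them the integrin chains of LFA-1, the kinase Fyn and the exchange factor Vav1, none passed between KO and WT in a subset. The medians were -0.14, -0.05 and -0.04 in CD27, DP and CD11b cells. The smallest p-values were those of Vav1 in CD27 cells (-0.32, adjusted p = 0.0879) and of the ubiquitin ligase gene Cblb in DP cells (-0.25, adjusted p = 0.461). Averaged over the subsets 1 of the 12 passed, again near the 8.08% of all probe sets: Vav1 (-0.20, adjusted p = 0.0172, or 0.319 with the arrays of a sample averaged first). Between subsets Plcg1, Plcg2 and Itgb2 passed in at least 1 comparison, all higher in CD11b cells: Plcg1 against DP cells in WT (1.20, adjusted p = 0.00801), Itgb2 against CD27 cells in WT (0.40, 0.00875) and Plcg2 against CD27 cells in WT (0.54, 0.00681) and KO (0.70, 0.0022). These 3 were named after their values were seen.

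Of 6 genes of inhibitory signalling through TIGIT and CD96, none passed in a subset, with medians of -0.08, -0.04 and 0.02. Ptpn6, which encodes the phosphatase SHP-1, had the smallest p, with a difference of -0.65 in CD27 cells (adjusted p = 0.181), followed by Inpp5d, which encodes the phosphatase SHIP-1, with -0.13 in CD27 cells (adjusted p = 0.588). Ptpn6 arrays did not overlap between KO and WT in any subset, and 16.4%, 14.6% and 18.7% of all probe sets had no overlap in CD27, DP and CD11b cells. In CD27 cells the lowest WT array (10.200) and the highest KO array (10.195) of Ptpn6 were nearly level. Averaged over the subsets, where 8.08% of all probe sets passed, Ptpn6 was the 1 of 6 that did. It was 1.45-fold lower in KO (adjusted p = 0.012, or 0.27 with the arrays of a sample averaged first). Between subsets the adaptor gene Sh3bp2 was higher in CD11b than in CD27 cells in WT (0.80, adjusted p = 0.00954) and KO (0.75, 0.0275), named after its values were seen. Of 7 genes of CRTAM-linked cell polarity and NK stage, none passed in a subset, with medians of -0.14, 0.02 and -0.13. The transcription factor genes Eomes (-0.34, adjusted p = 0.0776) and Foxo1 (-0.30, adjusted p = 0.199) had the smallest p-values, both in CD27 cells. Averaged over the subsets, where 8.08% of all probe sets passed, they were the 2 of 7 that did (-0.19, adjusted p = 0.0223, and -0.24, adjusted p = 0.0168). With the arrays of a sample averaged first neither passed (adjusted p = 0.295 and 0.225). Tbx21, which encodes T-bet, was higher in CD11b than in CD27 cells in WT (0.49, adjusted p = 0.00747) and was named after its values were seen.

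Each receptor's profile over the 18 arrays was set against those of the 21788 other probe sets with a single symbol. The correlations are descriptions: the arrays fall into 6 groups and share sorts and replicate numbers. For Cd226 the highest Pearson's r were those of Inpp4b (0.97), a phosphoinositide phosphatase gene, Tmem176b (0.95), the aryl hydrocarbon receptor gene Ahr (0.94), the channel gene Aqp9 (0.94) and Sh3kbp1 (0.94), and the lowest those of Anxa8 (-0.92), Tram1 (-0.91) and Tmsb15a (-0.90). For Tigit they were Lypla1 (0.93), the proton-sensing receptor gene Gpr65 (0.92), Lrrn4 (0.91), Abi2 (0.89) and the interferon-induced Oas3 (0.89). The lowest for Tigit were Ddx10 (-0.93), Runx3 itself (-0.92) and Afdn (-0.91), which encodes afadin, the protein that binds the tails of nectins inside the cell.

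For Cd96 the highest were the adaptor gene Stap1 (0.96), the kinase gene Stk26 (0.95), Impdh1 (0.94), Traf4 (0.94) and Septin6 (0.93), and the lowest Tmem106a (-0.94), Rai14 (-0.93) and Pygl (-0.92). For Crtam they were the repressor gene Zhx2 (0.97), Tpm1 (0.96), Angel1 (0.95), Traf1 (0.95) and the adaptor gene Skap1 (0.95), and the lowest Coro1c (-0.93), Abcc4 (-0.92) and Psmc3 (-0.91). Between the receptors, Cd96 and Crtam had an r of 0.91. Crtam ranked 18th among the genes most like Cd96, and Cd96 30th among those most like Crtam. Cd226 and Tigit had an r of 0.66, and the 4 pairs of a higher with a lower receptor had r between -0.32 and 0.17.

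Some features of the libraries moved with these results. Runx3 itself was 1.40- to 1.55-fold lower in KO in the 3 subsets (adjusted p of 0.0175 to 0.0416) and still gave signal, and whether its probes lie in the deleted part is not known here. Ncr1, the gene of NKp46, averaged 13.58 to 13.75 in the 6 groups. The gating genes followed the sort: Cd27 averaged 11.52 to 11.80 in CD27 and DP cells against 9.48 to 9.87 in CD11b cells, and Itgam, which encodes CD11b, 9.50 to 10.14 in CD27 cells against 11.80 to 12.60 in the others. Within the gates Itgam was lower in KO, without overlap of the arrays in DP cells (-0.57, adjusted p = 0.51) and CD11b cells (-0.44, adjusted p = 0.516) and with overlap in CD27 cells (-0.65, adjusted p = 0.335). Averaged over the subsets it was 1.47-fold lower (adjusted p = 0.0365, or 0.229 with the arrays of a sample averaged first), and its part in the receptor results was not tested. The labels give male or female for every sample, and the sexes were not balanced between genotypes. Xist, transcribed from the inactive X chromosome of females, was at 12.48 to 13.004 on the arrays of WT replicates 2 and 3 and KO replicate 3, and at 5.13 to 5.69 on those of WT replicate 1 and KO replicates 1 and 2. The Y-linked Eif2s3y read 6.83 to 9.10 on the arrays of KO replicate 3 and 6.44 to 8.12 on those of WT replicate 2, against 4.86 to 5.53 for WT replicate 3 and 11.02 to 11.15 for the rest. With Xist as a covariate the members kept their directions between KO and WT in every subset, and Cd96 in CD27 and DP cells (adjusted p = 0.0371 and 0.0481) and Crtam in CD11b cells (0.0365) passed as well. Summed over 14 NK cell genes, the signal on the linear scale was 90450 to 113100 on WT and 86280 to 110400 on KO arrays. In CD27, DP and CD11b cells 2, 0 and 0 of these genes passed as higher and none as lower. Of all probe sets 0.907%, 0.395% and 1.29% passed there. Cell cycle genes were high in KO, above all on the arrays of KO replicate 3, with a mean log2 over 25 genes of 10.27 to 10.62, against 7.33 to 8.26 on the other KO arrays and 6.80 to 7.05 in WT. Of the 25 genes, 2, 1 and 1 passed as higher in CD27, DP and CD11b cells, against 0.907%, 0.395% and 1.29% of all probe sets. Their median differences were 1.82, 2.17 and 1.77. Averaged over the subsets 15 of the 25 passed as higher, where 8.08% of all probe sets passed. The CD11b array of KO replicate 3 also had high signal of other leukocytes: 13830 summed over 10 dendritic cell and MHC class II genes (WT 3221 to 4416, with Cd74 at 11.68), 11560 over 11 neutrophil genes (WT 436.2 to 466), 6254 over 11 macrophage and monocyte genes (WT 649 to 831.2, with Lyz2 at 12.27) and 1076 over 9 B cell genes (WT 312.7 to 321.6). None of these 4 lists had a gene that passed in any subset. Raised signal was not confined to that array. The CD11b array of KO replicate 1 read 7.96 for Lyz2 and 6.97 for Cd74, against 5.02 to 5.32 and 5.12 to 5.26 in WT. Its sums were 855.2 over the macrophage and monocyte genes and 2907 over the dendritic cell genes. KO replicate 3 had Cd74 at 7.86 in CD27 and 8.58 in DP cells. The CD11b cells were also compared without the 3 arrays of KO replicate 3, with KO replicate 1 kept. The differences were 1.48 for Cd226 (adjusted p = 0.00158), 1.63 for Tigit (0.00135) and -0.94 for Cd96 (0.00135), and all 3 passed. With all arrays they were 1.42, 1.57 and -1.11. Crtam was at -0.85 without KO replicate 3 (adjusted p = 0.132) and -1.24 with all arrays (0.0899), and passed in neither fit.

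T cells also carry Cd226, Cd96 and, once activated, Crtam and Tigit. Summed over 15 T cell genes, the signal in CD27 cells was 15100 to 16810 in WT and 10590 to 13130 in KO. There 2 of the 15 passed, both lower, against 0.907% of all probe sets. Cd3e, which defines T cells, was at 10.49, 11.09 and 8.14 in WT and 6.39, 6.69 and 7.65 in KO. On WT replicate 3, with the lowest Cd3e of the WT arrays, Crtam (10.87) lay between the values of the other WT arrays. Cd226 (10.91) was the lowest of the WT values there, and Tigit (10.04) and Cd96 (12.48) were the highest. In DP and CD11b cells Cd3e was between 5.37 and 6.3 on all 12 arrays, below the median of all values (6.32). There the T cell sums were 10140 to 10750 and 5645 to 6198 in WT and 8167 to 11430 and 4775 to 6201 in KO, and none of the 15 genes passed. The part of T cells in the CD27 results was not tested.

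Tissue-resident innate lymphoid cells of type 1 (ILC1) carry NKp46 and would enter the sort. Summed over 10 genes linked to them, the signal was 7887 to 12580 in WT and 10400 to 11170 in KO CD27 cells. It was 2517 to 3211 against 3137 to 4777 in DP cells and 1383 to 1746 against 1878 to 2553 in CD11b cells. The median differences were 0.32, 0.80 and 0.82, against -0.01, -0.02 and -0.01 over all probe sets. Of the 10 genes 0, 2 and 2 passed as higher, where 0.907%, 0.395% and 1.29% of all probe sets passed. Averaged over the subsets 5 of the 10 passed as higher, where 8.08% of all probe sets did. Inpp4b and Tmem176b, whose profiles were most like that of Cd226, are both on this list, and the part of such cells in the Cd226 result was not tested. Platelets carry CD226 as well. Summed over 7 platelet and erythroid genes the signal was 405.9 to 498.8 on WT and 399.2 to 668.3 on KO arrays, and none passed in any subset.

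**Figure D5:**
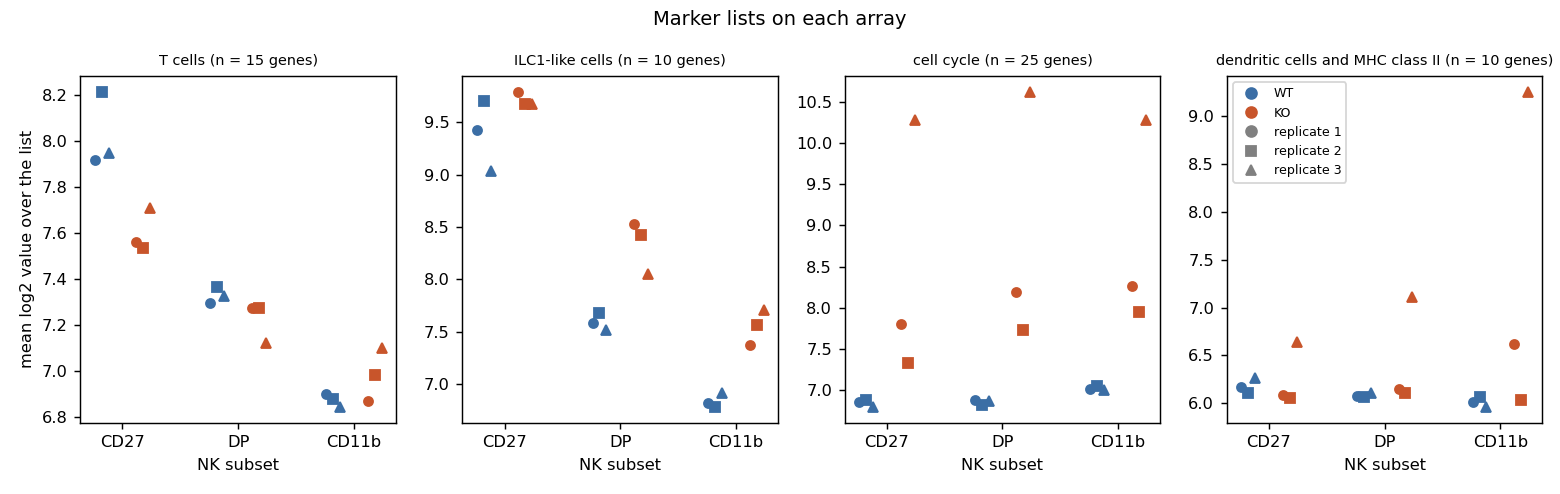
Mean log2 value over the genes of a marker list (vertical axis) on every array, by NK subset (horizontal axis), WT in blue and KO in orange, with marker shapes for the replicate number. The T cell list is lower in KO in CD27 cells, the ILC1-like list is higher in KO in DP and CD11b cells, and KO replicate 3 stands apart in the cell cycle list (10.27 to 10.62).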

How the data were processed

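The authors deposited log2 values for 18 arrays, made by RMA with Partek, per the submitters' processing notes; versions are not given in the sources used here. Their range, 3.91 to 14.96, is that of a log2 scale. No filter was applied. Of 35399 probe sets, 21789 have 1 gene symbol in the platform annotation, 1621 several and 11989 are not listed there; all were tested. Arrays of a group had a median SD of 0.14 log2. Precision is limited by the 3 arrays a group, not by a read depth.

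The 6 group means were fitted by limma (3.58.1, R 4.3.3) over all 18 arrays, leaving 12 residual degrees of freedom. Contrasts were tested two-sided after eBayes moderation, with Benjamini-Hochberg adjustment over all probe sets. Intervals are 95%. An exact permutation of 3 against 3 arrays cannot give a p under 0.1. The procedure was tested on simulated data.

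The members, gene lists and tests were chosen with earlier results of these data known. Genes named besides the members are the sort and genotype genes, the 2 members of each pathway list with the smallest p where none passed in a subset, the 5 highest and 3 lowest correlated genes of each receptor, predicted genes passed over, and the markers Cd3e, Cd74 and Lyz2. Xist and Eif2s3y mark sex. Plcg1, Plcg2, Itgb2, Sh3bp2, Tbx21, Jhy and Zbtb20 fall outside this rule and were named after their values were seen. Cadm2 and Pvrig, on the lists, had no probe set with a single symbol. Sums of a marker list are on the linear scale. Of the 4 genes, 2 had an entry in the promoter table. Same-numbered arrays were taken as paired if their deviations from the group means correlated above 0.1 in every pair: they did within KO (r of 0.21 to 0.64), not in every pair within WT (-0.0094 to 0.46), and not between WT and KO (-0.07 to 0.19). Differently numbered KO arrays had r of -0.61 to 0.29, the positive ones all between replicates 1 and 2. Meeting the rule thus does not show that a number is a shared animal. Xist and Eif2s3y followed the replicate number in every subset of both genotypes, which the rule did not use.

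Alternatives were cyclic loess, a filter on the mean (over 6.33), a robust prior with a trend on intensity (statmod 1.5.0), the compared groups alone, array weights, a fixed or a random block for the replicate number, Xist as a covariate, arrays of a sample averaged first, and leaving out KO replicate 3 or each array in turn; a group left with 2 arrays is assumed to share the spread of the rest.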

Additional observations from a re-analysis of the deposited data

How the results depend on the processing

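Over 56 results of the receptors, 463 of 500 alternatives other than single left-out arrays kept the direction and the side of the threshold. That count includes results that did not pass in the main fit, so it is not the share of passing calls that held. Of the rest, 13 lost a pass, 21 gained a pass and 3 turned sign. With the compared groups alone, which leaves fewer degrees of freedom, these did not pass (adjusted p): in KO against WT in CD11b cells Tigit (1.57, 0.0822) and Cd96 (-1.11, 0.111); in WT, DP against CD27 Cd226 (-1.79, 0.0888) and CD11b against DP Tigit (-1.33, 0.0584); in KO, CD11b against DP Tigit (-1.05, 0.181) and Cd96 (-0.71, 0.539), and CD11b against CD27 Tigit (-0.78, 0.144), Cd96 (-0.93, 0.139) and Crtam (-1.53, 0.282). With samples averaged first the average effects on Cd96 (-0.76, 0.0832) and Crtam (-1.46, 0.129) did not pass. Without KO replicate 3 in all subsets Tigit did not pass in KO for CD11b against DP (-1.0, 0.069) or CD27 (-0.74, 0.0958), while Cd96 passed in CD27 KO against WT (-0.54, 0.0309) and WT CD11b against CD27 (-0.39, 0.025) and Crtam in WT DP against CD27 (-1.23, 0.0214). With array weights these passed: Cd96 in CD27 KO against WT (-0.49, 0.00352) and WT CD11b against CD27 (-0.38, 0.0257), Crtam in WT DP against CD27 (-1.28, 0.0324), Cd226 in KO DP against CD27 (-0.75, 0.0118) and the Cd226 effect in CD11b minus CD27 (1.23, 0.0117) and its F test of genotype by subset (adjusted p = 0.0167). With Xist as a covariate Cd96 passed in CD27 (-0.63, 0.0371) and DP cells (-0.63, 0.0481) and Crtam in CD11b cells (-1.34, 0.0365). The cause of these changes was not tested.

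Between KO and WT the fixed block was the replicate number, shared by both genotypes. With it Cd96 passed in CD27 cells (-0.58, 0.0472) and Crtam in DP (-1.20, 0.045) and CD11b cells (-1.24, 0.0219). Same-numbered WT and KO arrays did not meet the pairing rule (r of -0.07 to 0.19). Between subsets the block was the number within each genotype. With it Crtam passed in WT DP against CD27 (-1.23, 0.011) and CD11b against DP (-1.01, 0.0249). So did Crtam in KO CD11b against DP (-1.04, 0.0254) and Cd96 in WT CD11b against CD27 (-0.39, 0.0373). As a random block (correlation 0.21) Crtam passed in WT DP against CD27 (-1.23, 0.0401) and the Cd226 effect in CD11b minus CD27 (1.13, 0.0467). The blocks changed no other call.

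Signs turned only where no fit passed: the Cd96 effect in DP minus CD27 without KO replicate 3 (0.0701), and the Crtam effect in CD11b minus DP under cyclic loess (5.3e-06) and without KO replicate 3 (0.0509). With each array left out in turn, Crtam ranged from -2.06 to -1.86 in CD27 and -1.67 to -0.85 in CD11b KO against WT. In KO, CD11b against DP, Cd96 ranged from -0.88 to -0.54 and Crtam from -1.47 to -0.65, and in CD11b against CD27 Tigit ranged from -0.94 to -0.69 and Crtam from -1.96 to -1.14. The differences of effects ranged, for DP minus CD27, from 0.91 to 1.23 for Cd226, -0.0714 to 0.0493 for Tigit and -0.10 to 0.11 for Cd96, for CD11b minus CD27 from 1.01 to 1.32 for Cd226, and for CD11b minus DP from -0.0031 to 0.22 for Cd226 and -0.46 to 0.36 for Crtam. The adjusted p of the F test for Cd226 ranged from 0.0101 to 0.502. The count of all probe sets that passed was 321 in CD27, 140 in DP and 457 in CD11b cells and 2862 on average. It was 14, 17 and 34 with the compared groups alone, 526, 274 and 802 with the fixed block, 1587 on average with the random block, 3974 in CD27 and 218 in DP cells with array weights, 285 in DP, 972 in CD11b cells and 4377 on average with Xist, and 71 with samples averaged first. With single arrays left out it was 117 to 282, 46 to 199, 182 to 1094 and 1959 to 3519.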

Other observations

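The genes that flank the receptors were read as well, 3 protein-coding genes on each side in the RefSeq table, a set chosen after the data were seen. Of 24 such genes 19 had a probe set. In CD27 cells 2 of the 19 passed between KO and WT, both lower, where 0.907% of all probe sets passed (limma, Benjamini-Hochberg adjusted over all probe sets). In DP and in CD11b cells none did, where 0.395% and 1.29% of all probe sets passed. Jhy, which lies next to Crtam, read 7.11, 7.75 and 7.13 in WT and 5.86, 5.96 and 5.62 in KO CD27 cells, without overlap. Its difference there was -1.52 (2.87-fold lower, 95% interval 2.09 to 3.93, adjusted p = 0.00318), in the direction of Crtam, and it was -0.86 in DP cells (adjusted p = 0.126) and -0.48 in CD11b cells (adjusted p = 0.358).

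Zbtb20, a transcriptional repressor gene whose span overlaps that of Tigit, moved against it. In CD27 cells it read 11.08, 11.08 and 11.26 in WT and 10.08, 10.11 and 9.70 in KO. The difference was -1.18 (2.26-fold lower, 1.68 to 3.06, adjusted p = 0.0122), with -0.90 in DP cells (adjusted p = 0.0877) and -0.67 in CD11b cells (adjusted p = 0.145). No array of KO reached one of WT for Zbtb20 in any subset. Between Tigit and Cd96 lie 33 protein-coding genes of that annotation.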
